A study of Mus musculus with 2 samples.

Results

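Transcripts of 8 genes that write, copy or remove DNA methylation were followed in mouse embryonic stem (ES) cells. The genes were chosen by name for this function, and all 8 were found by their Ensembl identifiers among the 54146 genes of the tables. They are *Dnmt1* and *Uhrf1*, which maintain methylation, *Dnmt3a*, *Dnmt3b* and *Dnmt3l*, which set it anew, and *Tet1*, *Tet2* and *Tdg*, which take part in its removal. Single cells were captured in droplets by inDrop, in which every captured transcript receives a cell barcode and a unique molecular identifier (UMI). There was 1 library of wild-type ES cells (clone a2.1, untreated) and 1 library of *Lin28a* knockout ES cells (clone a3.5), the latter made with CRISPR/Cas9 and a guide RNA against the second exon. The labels call both ICM-derived ES cells, and both were grown on gelatin with mouse embryonic fibroblast (MEF) feeders in LIF/2i medium. LIN28A is an RNA-binding protein known for blocking the maturation of let-7 microRNAs.

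DNA methylation in mammals lies mostly on the cytosine of CpG dinucleotides. DNMT1 copies it onto the new strand after replication and is brought to hemimethylated DNA by UHRF1, whereas DNMT3A and DNMT3B, helped by the catalytically inactive DNMT3L, methylate unmarked sites. The TET enzymes oxidise 5-methylcytosine, and thymine DNA glycosylase (TDG) excises the further oxidised bases so that base excision repair can replace them. ES cells in 2i medium are known for low DNA methylation.

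Barcodes of 500 or more UMIs in which mitochondrial genes took no more than 0.2 of them were kept as cells, which left 1856 wild-type cells (11639256 UMIs, median 6140 per cell) and 1622 knockout cells (9340855 UMIs, median 5063.5). UMIs were summed over the cells of a group and scaled to the total UMIs of that group (counts per 1e6, CPM) with exact 95% Poisson intervals, which cover counting error only. With 1 library of 1 clone per genotype no test was possible, and the genotype, the clone and the culture cannot be told apart. *Lin28a*, the targeted gene, gave 107 CPM in wild-type and 36.6 CPM in knockout cells, or 0.343 of the wild-type level (0.304 to 0.387). Its transcript thus remained countable in the knockout library. Barcodes were numbered serially in each table, so barcodes shared between the libraries could not be counted. Cells marked as doublets (25 wild-type and 15 knockout) were kept.

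Promoter sequences of *Uhrf1*, which followed S-phase transcripts, and of *Tet1* and *Tet2*, which were lower in the knockout library, are shown first (values further on). They come from RefSeq on GRCm38.p6, run 5′ to 3′ on the gene's own strand up to the base before the start site, and leave out annotated exons. For *Uhrf1* the capitals mark a match to an E2F string (TTTGGCGC, TTTGCCGC, TTTCGCGC or TTTCCCGC, on either strand), and for *Tet1* and *Tet2* they mark CpG.
Uhrf1, chr17:56304063-56304312, plus strand: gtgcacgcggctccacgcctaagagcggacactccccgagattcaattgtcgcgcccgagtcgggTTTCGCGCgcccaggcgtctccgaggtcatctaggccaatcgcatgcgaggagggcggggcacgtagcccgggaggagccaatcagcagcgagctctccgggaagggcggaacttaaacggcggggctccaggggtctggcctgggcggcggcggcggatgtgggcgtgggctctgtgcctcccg
Tet1, chr10:62887325-62887412, minus strand: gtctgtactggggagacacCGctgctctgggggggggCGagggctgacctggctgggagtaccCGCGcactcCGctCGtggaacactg
Tet2, chr3:133544391-133544640, minus strand: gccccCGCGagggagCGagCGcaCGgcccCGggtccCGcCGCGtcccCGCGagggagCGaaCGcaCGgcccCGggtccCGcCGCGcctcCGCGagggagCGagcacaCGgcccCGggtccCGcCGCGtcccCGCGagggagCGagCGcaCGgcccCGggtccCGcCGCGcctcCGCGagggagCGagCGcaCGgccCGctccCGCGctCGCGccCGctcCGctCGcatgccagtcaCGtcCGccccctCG
The 8 genes had 15 windows of 300 bases, which reached from 250 bases before to 50 after a start site. An E2F string was found in 1 window each of *Uhrf1* (185 bases before the start site) and *Dnmt1* (219 bases before and 33 bases after it, where other transcripts have exons, and so not printed), and in 2.26% of the 32851 windows of all genes. The other 6 members held none of these strings in their windows. CpG content differed widely, with 57 CpG in the *Tet2* window, 17 in that of *Tet1* and 3 to 6 in the 3 windows of *Dnmt3l*, beside a median of 7 over all windows.

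The maintenance pair was counted at similar levels in both libraries. *Dnmt1* (ENSMUSG00000004099.16, minus strand of chromosome 9, 20907209 to 20959888 in GRCm38) had 1899 wild-type and 1383 knockout UMIs, or 163 and 148 CPM, so that knockout over wild-type came to 0.907 (0.846 to 0.973). *Uhrf1* (ENSMUSG00000001228.14, chromosome 17 from 56303321 to 56323486, plus strand) had 2314 and 1810 UMIs, or 199 and 194 CPM, with a ratio of 0.975 (0.916 to 1.04). The interval of *Uhrf1* thus included equal levels, and that of *Dnmt1* lay just below them.

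All 3 de novo genes were lower in the knockout library. *Dnmt3b* (ENSMUSG00000027478.15, chromosome 2 from 153649450 to 153687730, plus strand) stood at 74.5 wild-type and 51.6 knockout CPM, a ratio of 0.693 (0.618 to 0.775). *Dnmt3a* (ENSMUSG00000020661.15, chromosome 12 from 3806007 to 3914443, plus strand) stood at 28.95 and 20.98 CPM, a ratio of 0.725 (0.605 to 0.867). *Dnmt3l* (ENSMUSG00000000730.13, chromosome 10 from 78041947 to 78063622, plus strand) stood at 50.3 and 39.5 CPM, a ratio of 0.786 (0.688 to 0.897). The order of *Dnmt3a* turned, however, when every cell was given equal weight (ratio 1.05). Antisense transcripts at 2 of these genes were nearly absent, with 13 wild-type and 9 knockout UMIs of *Dnmt3aos* and 1 and 0 of *Dnmt3bos* over all barcodes. The rodent gene *Dnmt3c*, a relative of *Dnmt3b* that acts in male germ cells, had 0 and 2 UMIs.

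Both TET genes were lower in the knockout library by nearly the same factor. *Tet1* (ENSMUSG00000047146.17, chromosome 10 from 62804570 to 62908996, minus strand) was counted with 4951 wild-type and 2692 knockout UMIs, or 425 and 288 CPM, a ratio of 0.677 (0.646 to 0.710). *Tet2* (ENSMUSG00000040943.12, chromosome 3 from 133463679 to 133545139, minus strand) was counted with 1290 and 704 UMIs, or 111 and 75.4 CPM, a ratio of 0.680 (0.619 to 0.746). *Tet3*, the family member known from oocytes and zygotes, was sparse at 6.96 and 8.03 CPM, and its ratio of 1.15 (0.831 to 1.60) included equal levels.

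*Tdg* (ENSMUSG00000034674.18, chromosome 10 from 82629828 to 82650799, plus strand) was the only member counted higher in the knockout library, at 51.5 against 56.6 CPM, a ratio of 1.10 (0.977 to 1.24) whose interval included equal levels. Its counts are uncertain, since the processed pseudogene *Tdg-ps* on chromosome 15 matches 98.7% of 2968 aligned bases and could share reads. The match ended at base 3024 of the 3502 bases of the longest *Tdg* transcript, and of its last 500 bases only 22 aligned. Where along the transcript the reads fell was not examined. *Tdg-ps* was itself listed at 34.7 and 40.9 CPM. With both summed, the ratio was 1.13 (1.03 to 1.24).

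**Figure D1:**
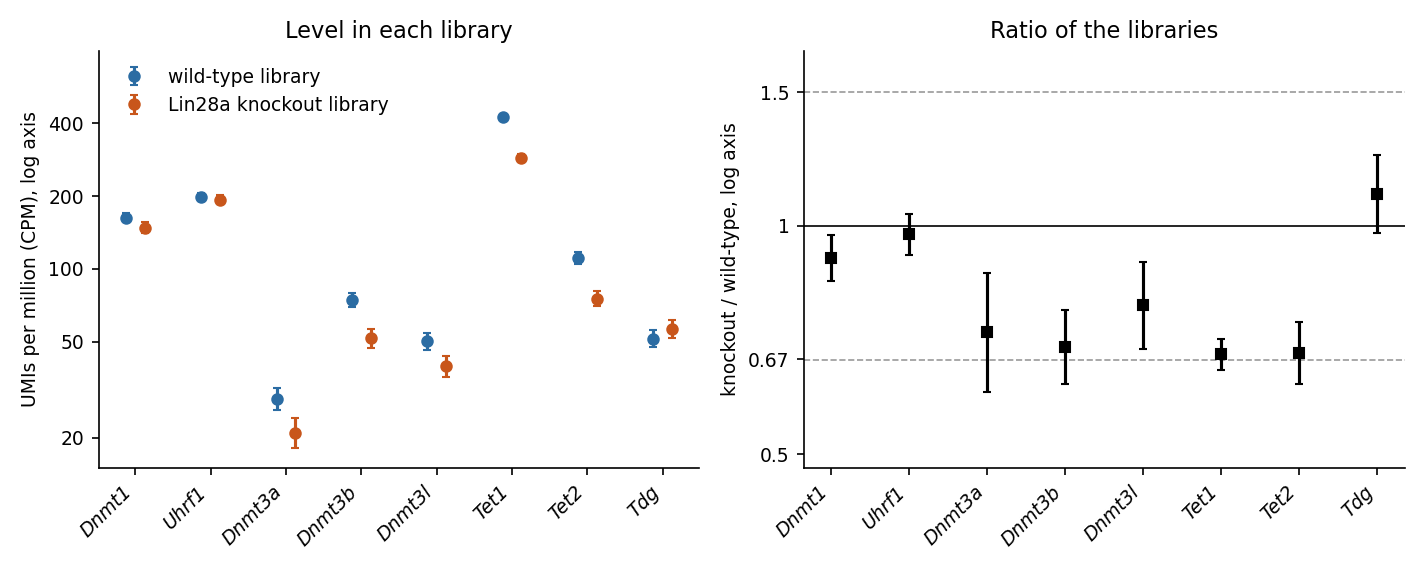
The left panel plots the level of each member in CPM (log axis) in the wild-type and the *Lin28a* knockout library, and the right panel the ratio of knockout over wild-type (log axis), with dashed lines at 1.5-fold either way. Bars are exact 95% intervals for counting error. *Tet1*, *Tet2* and *Dnmt3b* lie close to the lower dashed line and *Uhrf1* and *Tdg* near equality.

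By size these differences were modest. None of the 8 members, 0 higher and 0 lower, passed 1.5-fold, whereas 6.49% of the 9835 genes with at least 200 UMIs were higher and 8.45% lower by that factor. Of the genes past it 56.6% were lower, a share that came to 67.9% with median of ratios scaling. The median log2 ratio of the members was -0.40, beside 0.02 over all these genes. *Tet1* and *Tet2* lay close to the limit, with only 9.23% and 9.54% of genes having a lower ratio, and they passed it when cells under 5% ribosomal protein (RP) UMIs were left out or the libraries were scaled by the median of ratios.

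Depth moved the ratios of several members. In cells of 5000 to 10000 UMIs (1042 wild-type and 507 knockout) the ratio of *Tet1* was 0.566 (0.525 to 0.609) and that of *Tet2* 0.561 (0.483 to 0.649). In cells over 10000 UMIs (192 and 314) they were 0.865 (0.793 to 0.943) and 0.916 (0.771 to 1.09). The ratio of *Dnmt3b* was 0.465 to 0.740 over the 4 depth ranges, with 3 of 4 intervals below 1, and that of 500 to 2000 UMIs, at 0.551 (0.284 to 1.09), included it. *Dnmt3a* and *Dnmt3l* were not lower at 500 to 2000 UMIs, at 1.69 (0.681 to 5.02) and 3.32 (0.787 to 29.6) on few UMIs. Their ratios were below 1 in the 3 deeper ranges. *Dnmt1* was below 1 except over 10000 UMIs, at 1.06 (0.935 to 1.21). *Uhrf1* was higher in the knockout library only above 10000 UMIs, at 1.18 (1.05 to 1.33), and lower at 2000 to 5000 UMIs, at 0.807 (0.665 to 0.976), and at 5000 to 10000 UMIs, at 0.891 (0.813 to 0.977). *Tdg* reached 1.58 (1.24 to 2.01) in the deepest cells, whereas its intervals in the 3 shallower ranges included 1.

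The share of cells with at least 1 UMI was lower in the shallower knockout library for all 8 members, whatever the order of their CPM. A *Tet1* UMI was present in 79.6% of the wild-type cells against 58.8% of the knockout cells, and at an equal depth of 500 UMIs per cell in 19.5% against 13.5%. For *Dnmt1* the shares were 56.7% and 43.6%, which came to 7.63% (6.48 to 8.96) and 6.07% (4.93 to 7.31) at 500 UMIs. *Uhrf1*, counted at similar CPM in both libraries, was present in 61.4% and 46.2% of cells, or 9.33% (8.04 to 10.7) and 7.82% (6.57 to 9.25) at 500 UMIs. *Tdg* was present in 27.3% and 25.03%, whereas its shares at 500 UMIs were 2.57% and 2.65%. At 500 UMIs the intervals of *Dnmt1*, *Uhrf1*, *Tdg* and *Dnmt3l* overlapped between the libraries, and those of *Tet1* did not. Those of *Tet2* (4.55 to 6.69% and 3.11 to 5.08%) and *Dnmt3b* (2.90 to 4.68% and 1.66 to 3.20%) overlapped as well. *Dnmt3a* was found in the fewest cells, 15.2% and 10.6%, and its shares at 500 UMIs were 1.44% and 1.501%, again with overlapping intervals. At 2000 UMIs its shares were 5.62% (4.54 to 6.83) and 3.79% (2.74 to 5.08), higher in the wild-type library with intervals that overlapped. *Dnmt3l* was spread more unevenly than *Tdg*, with 585 UMIs in 371 wild-type cells and up to 8 in 1 cell, whereas the 599 UMIs of *Tdg* were spread over 507 cells with at most 4 in 1 cell.

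The members were next followed along the cell cycle. In each library apart, cells with at least 2000 UMIs (1642 wild-type and 1110 knockout) were ordered by the share of their UMIs on 42 S-phase genes, none of them a member, and divided into 3 groups of equal size, called low-S, middle-S and high-S. *Uhrf1* is commonly listed with such S genes and was kept out of the ordering, so that its rise with them is no independent finding. *Uhrf1* rose over all 3 groups, from 138 over 205 to 260 CPM in wild-type cells and from 116 over 192 to 263 CPM in knockout cells, with no overlap of intervals. High-S over low-S cells gave 1.88 (1.69 to 2.10) and 2.27 (1.98 to 2.61). *Dnmt1*, its partner at the replication fork, changed little, from 152 over 176 to 164 CPM and from 127 over 157 to 161 CPM, with ratios of 1.08 (0.961 to 1.21) and 1.26 (1.09 to 1.46). The genes of the maintenance pair thus differed in how far they followed S-phase transcripts, in both libraries.

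The demethylation genes were also higher in high-S than in low-S cells. *Tet2* gave ratios of 1.51 (1.31 to 1.74) for wild-type cells and 1.79 (1.44 to 2.24) for knockout cells, *Tet1* of 1.41 (1.31 to 1.51) and 1.63 (1.46 to 1.82), and *Tdg* of 1.54 (1.25 to 1.90) and 1.76 (1.37 to 2.27). For *Tet1* most of the difference lay between low-S and middle-S cells, at 337 and 463 CPM in the wild-type library, and the intervals of middle-S and high-S cells overlapped. *Dnmt3b* behaved similarly, at 1.44 (1.21 to 1.71) and 1.74 (1.34 to 2.27). *Dnmt3a* and *Dnmt3l* did not, with wild-type ratios of 0.900 (0.688 to 1.18) and 0.848 (0.689 to 1.04) and knockout ratios of 1.30 (0.881 to 1.92) and 1.18 (0.902 to 1.54). Past 1.5-fold higher were 3 of 8 members in the wild-type library, beside 16.6% of genes, and 5 of the 7 with at least 200 UMIs in the knockout library, beside 26.8% of genes.

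Grouped in the same way by 54 G2/M genes, the TET genes had the highest ratios. *Tet2* was 1.60-fold (1.38 to 1.85) and 1.94-fold (1.56 to 2.43) higher in high-G2/M than in low-G2/M cells, and *Tet1* 1.57-fold (1.45 to 1.68) and 1.47-fold (1.33 to 1.63). By G2/M *Dnmt1* gave 1.30 (1.16 to 1.45) and 1.41 (1.22 to 1.62), while *Uhrf1* gave only 1.16 (1.05 to 1.29) and 1.36 (1.19 to 1.54). Past 1.5-fold higher were 2 of 8 members in the wild-type library, beside 10.7% of genes, and 1 of 7 in the knockout library, beside 18.6%. Without fibroblast-like cells, all 30 and 8 of which at this depth were in the low-G2/M groups, the wild-type count was 0, with *Tet1* at 1.42 and *Tet2* at 1.46.

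**Figure D2:**
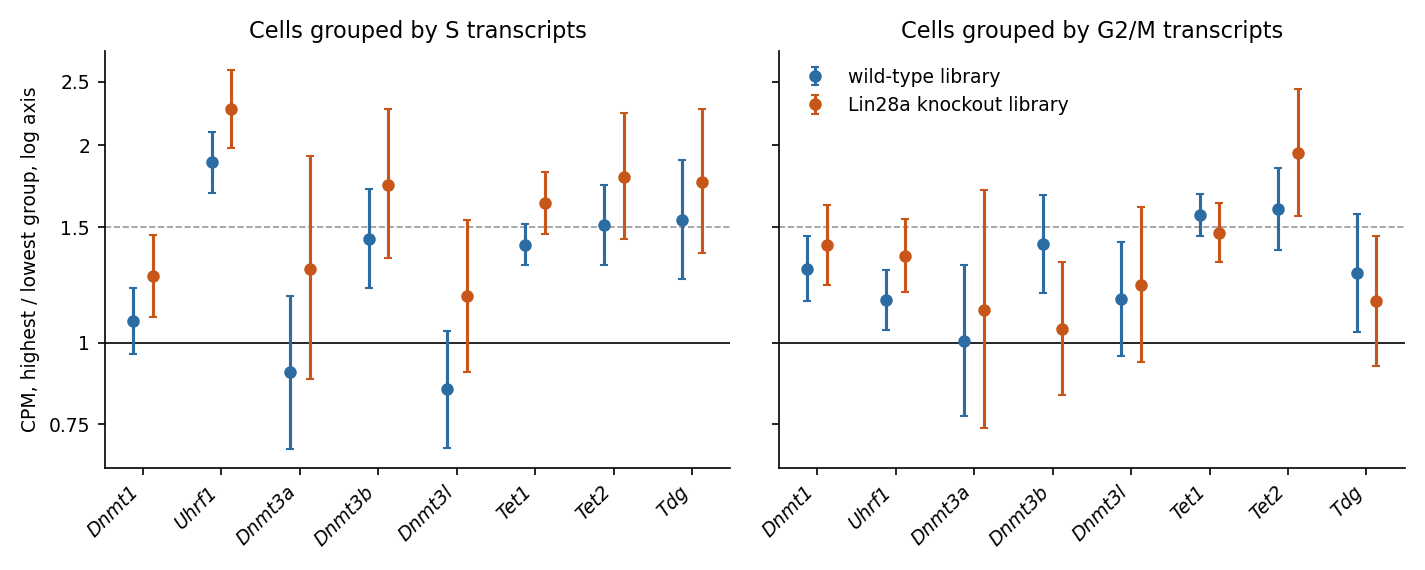
Each point is the ratio of a member's CPM in the group of cells with the highest over the group with the lowest share of S (left) or G2/M (right) transcripts, in the wild-type and the *Lin28a* knockout library (log axis, bars are exact 95% intervals for counting error, dashed line at 1.5). By S transcripts *Uhrf1* lies highest in both libraries, at 1.88 and 2.27, and by G2/M transcripts *Tet2* does, at 1.60 and 1.94.

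These groups differed in more than the cell cycle. Low-S cells were rich in RP transcripts, with a median RP share of 11.4% against 9.01% of high-S cells in the wild-type and 16.0% against 9.66% in the knockout library, and they held all 30 and 8 fibroblast-like cells of this depth. The groups were therefore remade, after these values had been seen, among cells of 5 to 10% and of 10 to 15% RP without fibroblast-like cells. *Uhrf1* was still higher in high-S cells in both ranges of both libraries, at 1.496 (1.30 to 1.72) and 1.39 (1.16 to 1.67) for wild-type cells and 1.39 (1.17 to 1.66) and 1.48 (1.21 to 1.81) for knockout cells. The S ratios of *Tet1* came to 0.948 (0.868 to 1.04), 0.941 (0.824 to 1.07), 0.929 (0.805 to 1.07) and 0.994 (0.842 to 1.17), so that its difference between S groups was no longer seen. Those of *Tet2* lay between 0.944 and 1.04, with each interval including 1. In the same order *Tdg* gave 1.35 (1.04 to 1.76), 0.823 (0.554 to 1.22), 1.18 (0.852 to 1.64) and 1.07 (0.728 to 1.58), and *Dnmt3b* 1.33 (1.06 to 1.67), 0.810 (0.584 to 1.12), 1.05 (0.715 to 1.53) and 1.21 (0.804 to 1.82). For both, the intervals included 1 in all but wild-type cells of 5 to 10% RP. In wild-type cells of 10 to 15% RP *Dnmt3a* and *Dnmt3l* were lower in high-S cells, at 0.547 (0.306 to 0.9496) and 0.573 (0.387 to 0.838), and their other 3 S intervals included 1, as did all 4 of *Dnmt1*. By G2/M transcripts *Tet1* kept smaller ratios of 1.09 (0.995 to 1.19), 1.30 (1.14 to 1.49), 1.17 (1.02 to 1.34) and 1.18 (1.01 to 1.39). Those of *Tet2* came to 1.11 (0.940 to 1.32), 1.21 (0.935 to 1.58), 0.9995 (0.771 to 1.30) and 1.33 (0.955 to 1.86), each interval including 1, and those of *Uhrf1* lay between 0.880 and 0.943. *Dnmt1* gave 1.09 (0.930 to 1.28), 1.17 (0.968 to 1.42), 1.06 (0.857 to 1.31) and 1.32 (1.06 to 1.65) by G2/M, so that 3 of its 4 intervals included 1. The G2/M intervals of *Dnmt3a*, *Dnmt3b*, *Dnmt3l* and *Tdg* included 1 in all 4 sets of cells.

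The share of RP transcripts was therefore examined itself. *Tet2* stood at 134 CPM in wild-type cells of 5 to 10% RP (932 cells) and at 40.8 CPM in those of 15% or more (226 cells), a 3.28-fold difference (2.57 to 4.24). In the knockout library it stood at 103 CPM (439 cells) and 20.9 CPM (355 cells), a 4.93-fold difference (3.61 to 6.88). *Tet1* fell over the same ranges from 503 to 204 CPM, 2.46-fold (2.21 to 2.76), and from 369 to 118 CPM, 3.13-fold (2.73 to 3.59). *Uhrf1* was 2.297-fold (1.95 to 2.71) and 2.95-fold (2.51 to 3.48) lower in the RP-rich cells, and *Tdg* 2.54-fold (1.84 to 3.58) and 3.03-fold (2.24 to 4.17).

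The DNA methyltransferase genes differed less between these 2 ranges. *Dnmt1* had a ratio of RP-rich cells over cells of 5 to 10% RP of 0.925 (0.803 to 1.06) among wild-type and 0.711 (0.606 to 0.832) among knockout cells. *Dnmt3b* gave 0.665 (0.527 to 0.831) and 0.633 (0.484 to 0.822), and *Dnmt3a* 0.797 (0.557 to 1.12) and 0.526 (0.327 to 0.823). *Dnmt1* was counted highest in cells of 10 to 15% RP, left out of this contrast, at 184 (171 to 199) and 174 (161 to 189) CPM. In RP-rich cells *Dnmt1* stood at 145 (128 to 164) and 107 (93.8 to 122) CPM. The CPM of *Dnmt3l* was not lower in RP-rich cells, with 47.4 against 60.3 CPM in the wild-type library, a ratio of 1.27 (1.01 to 1.60), and 38.1 against 39.4 CPM for knockout cells, a ratio of 1.04 (0.778 to 1.37). With RP and mitochondrial genes left out of the denominator, *Tet1* still gave 0.442 (0.395 to 0.493) and 0.344 (0.300 to 0.394). More than 1.5-fold lower in RP-rich cells were 4 of 8 members in the wild-type library, beside 44.9% of genes, and 5 of 7 in the knockout library, beside 41.2%. RP-rich cells also had few mitochondrial transcripts, 0.249% against 1.77% of UMIs for wild-type cells and 0.363% against 2.62% for knockout cells, and fewer S transcripts, 0.393% against 0.594% and 0.334% against 0.512%. The part of these in the result was not tested.

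**Figure D3:**
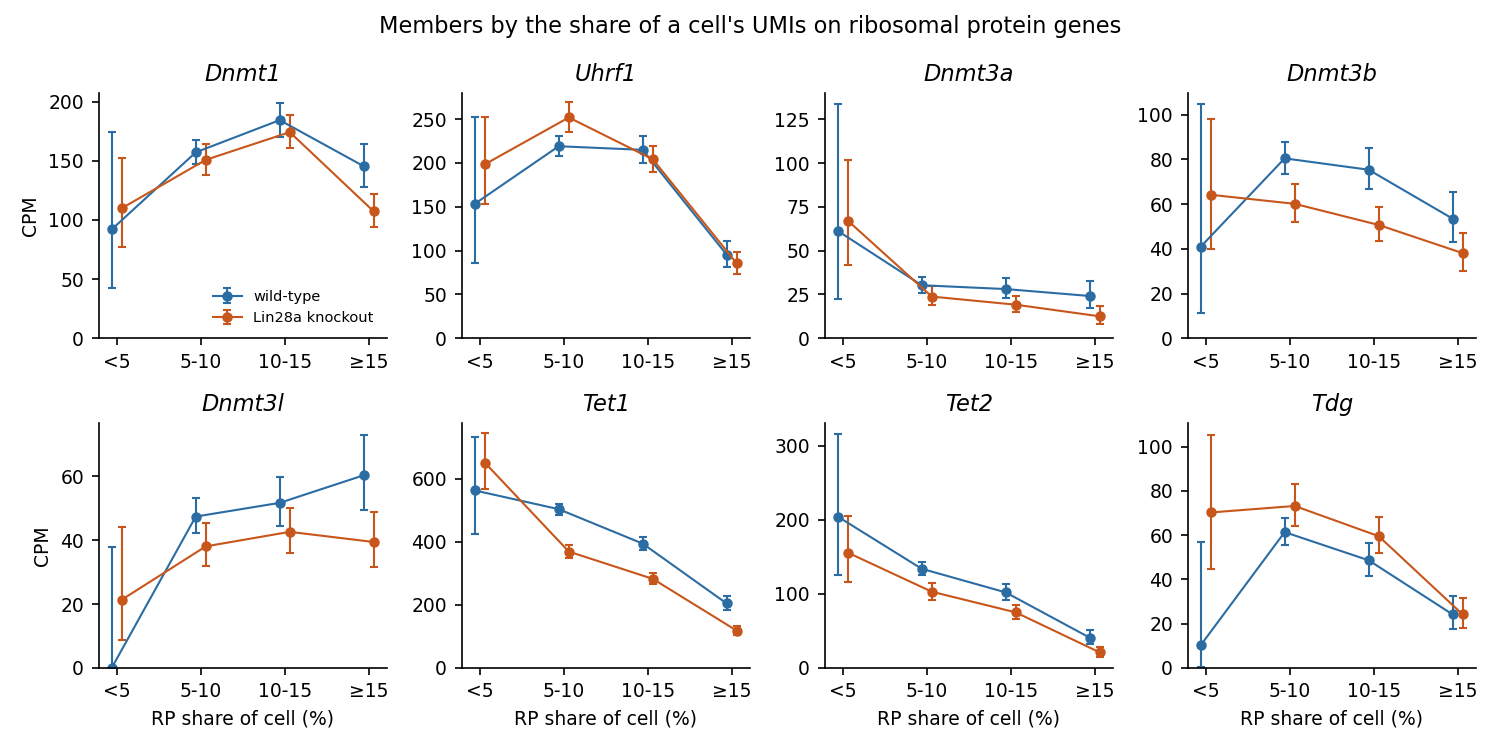
Each panel plots the CPM of 1 member in cells grouped by the share of their UMIs on RP genes (under 5, 5 to 10, 10 to 15, and 15% or more) in the wild-type and the *Lin28a* knockout library, with exact 95% intervals for counting error. *Tet1* and *Tet2* fall with the RP share in both libraries, from 562 to 204 and 650 to 118 CPM for *Tet1*, while *Dnmt3l* does not fall. The ranges under 5% hold 91 and 233 cells and few UMIs.

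The libraries were also compared among cells alike in RP share or in S transcripts. In cells of 5 to 10% RP the ratio of knockout over wild-type was 0.733 (0.686 to 0.783) for *Tet1*, 0.769 (0.676 to 0.872) for *Tet2* and 0.747 (0.631 to 0.882) for *Dnmt3b*, and in RP-rich cells it was 0.577 (0.490 to 0.680), 0.512 (0.344 to 0.754) and 0.712 (0.522 to 0.968). In cells under 5% RP, with few UMIs, *Tet1* was not lower in the knockout library, at 650 (566 to 744) against 562 (424 to 732) CPM, nor was *Dnmt3b*, at 64.1 (39.7 to 98.0) against 40.9 (11.1 to 105) CPM, and the ratio of *Tet2* was 0.762 (0.446 to 1.35). Within the S limits of the wild-type groups, from low-S to high-S, *Tet1* gave 0.765 (0.709 to 0.825), 0.690 (0.634 to 0.751) and 0.689 (0.608 to 0.779) and *Tet2* 0.760 (0.653 to 0.884), 0.737 (0.622 to 0.870) and 0.673 (0.526 to 0.853). Both TET genes were thus lower in the knockout library within each of these limits. *Dnmt3b* gave 0.753 (0.628 to 0.904), 0.845 (0.694 to 1.03) and 0.622 (0.452 to 0.840), so that its middle-S interval included equal levels. Of the knockout cells 64.6% lay in the low-S range and only 10.4% in the high-S range.

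The order of *Uhrf1* between the libraries depended on how the cells were matched. Within the S limits its ratio was 1.13 (1.01 to 1.26), 1.21 (1.09 to 1.35) and 1.15 (1.0003 to 1.31), all higher in the knockout library. Fibroblast-like cells, in which *Uhrf1* was nearly absent, were not left out here. The low-S range held 30 of them among 548 wild-type and 8 among 717 knockout cells, and their part in its ratio was not tested. Within the G2/M limits the ratio of *Uhrf1* was 1.05 (0.946 to 1.17), 0.930 (0.830 to 1.04) and 1.06 (0.941 to 1.19), each interval including 1. By RP share it was 1.15 (1.05 to 1.25) at 5 to 10%, while the intervals under 5% (1.29, 0.730 to 2.44), at 10 to 15% (0.9501, 0.857 to 1.05) and at 15% or more (0.895, 0.721 to 1.11) included 1.

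Feeder fibroblasts were the other cell type that the labels of the cultures name. Cells with at least 1% and at least 3 UMIs on *Col1a1*, *Col1a2* and *Col3a1* were called fibroblast-like, which gave 31 wild-type and 16 knockout cells, with 26 and 12 cells between 0.5% and 2%. All 20 fibroblast markers were higher in them than in the other cells in the wild-type library and 18 of 20 in the knockout library, and 11 and 12 of the 12 ES markers were higher in the other cells. The 3 collagens that defined these cells are among the 20 fibroblast markers and were higher by that definition. The 10 primitive endoderm markers, 1 of them also a fibroblast marker, summed to 551 and 495 CPM in fibroblast-like and to 33.7 and 39.5 CPM in the other cells, with 6 and 2 of the 10 higher in fibroblast-like cells and *Gata4*, *Sox17* and *Foxa2* at 0 there in both libraries. The 10 primed epiblast markers summed to 338 and 68.7 CPM in fibroblast-like and to 84.4 and 61.2 CPM in the other cells, with 4 and 2 of the 10 higher in fibroblast-like cells. Median depths were 9310 and 2105.5 UMIs in fibroblast-like and 6113 and 5070.5 UMIs in the other cells.

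*Dnmt3a* was the only member counted higher in the fibroblast-like cells. It had 18 UMIs in 14 of the 31 wild-type fibroblast-like cells, 56.4 CPM (33.4 to 89.1) against 28.2 CPM (25.2 to 31.4) in the other cells, a ratio of 2.00 (1.17 to 3.21). In the knockout library it had 6 UMIs in 4 of 16 cells, 82.5 CPM (30.3 to 180) against 20.5 CPM (17.7 to 23.6), a ratio of 4.02 (1.46 to 8.92). With the collagen limit at 0.5% or 2% in place of 1% this knockout ratio was 2.68 or 2.23. At 500 UMIs per cell a *Dnmt3a* UMI came to 3.39% (0.0816 to 16.7) of fibroblast-like and 1.40% (0.933 to 2.08) of other wild-type cells, with intervals that overlapped. Fibroblast-like cells held 5.34% and 3.06% of its UMIs.

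The other members were lower there or too sparse to tell. *Tet1* had 2 UMIs in each library, 6.26 CPM (0.759 to 22.6) against 437 CPM in the other wild-type cells and 27.5 CPM (3.33 to 99.3) against 290 CPM in the knockout library, and was found in 6.45% and 12.5% of fibroblast-like cells. *Uhrf1* was seen as 2 UMIs among wild-type cells, 6.26 CPM against 204 CPM, and 0 UMIs in the knockout library, where a limit of 3 counts came to 41.2 CPM and the exact interval reached 50.7 CPM, against 195 CPM. *Dnmt1* stood at 18.8 CPM (6.90 to 40.9) against 167 CPM in the wild-type library, with 6 UMIs, and had 1 UMI in the knockout library. *Dnmt3l* had 0 and 1 UMIs, *Dnmt3b* 1 and 0, and *Tet2* 4 and 0. *Tdg* differed least, at 21.9 CPM (8.82 to 45.2) against 52.3 CPM and at 55.0 CPM (14.98 to 141) against 56.6 CPM. By 1.5-fold or more, 1 of 8 members (*Dnmt3a*) was higher in wild-type fibroblast-like cells, beside 20.2% of genes, and 0 of the 7 with at least 200 UMIs in the knockout library, which leave out *Dnmt3a*, beside 20.7%. Lower by as much were 7 of 8 members in the wild-type library, beside 44% of genes, and 6 of 7 in the knockout library, beside 41.9%. These counts take no account of the intervals. In the knockout library the ratio intervals of *Dnmt3b*, *Dnmt3l* and *Tet2* reached up to 0.979, 1.94 and 0.669, and that of *Tdg* in the wild-type library up to 0.869. A difference of 1.5-fold was thus not shown for these. Fibroblast-like cells had few S transcripts too, 0.0542% and 0.0660% of UMIs against 0.554% and 0.450% in the other cells.

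**Figure D4:**
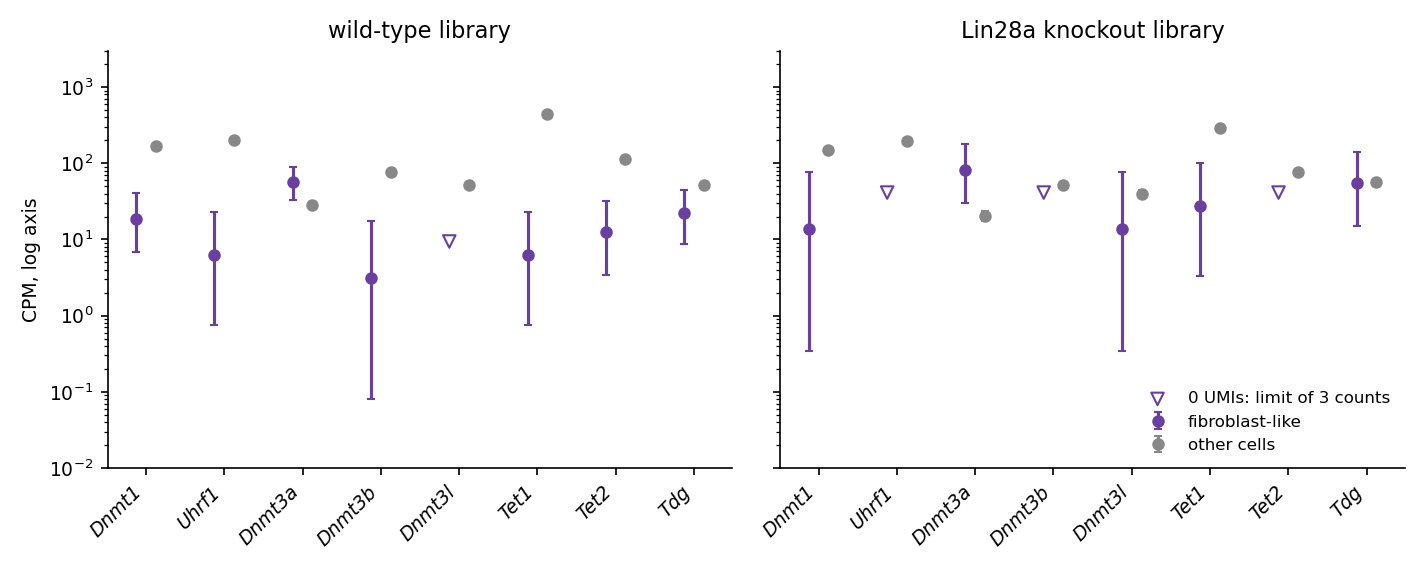
CPM of each member (log axis) in fibroblast-like cells and in the other cells of the wild-type (left) and *Lin28a* knockout (right) library, with exact 95% intervals for counting error. Open triangles mark 0 UMIs in fibroblast-like cells and stand at the limit of 3 counts. *Dnmt3a* alone lies higher in fibroblast-like cells in both libraries.

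From cell to cell the correlations between members were low. Over the 28 pairs, Pearson's r of log2(CPM + 100) had a median of 0.04 in 1234 wild-type and 0.05 in 821 knockout cells of at least 5000 UMIs, and the highest was that of *Tet1* with *Tet2*, at 0.22 in both. Cells of a library share its depth and composition, so these are descriptions. Several members had few UMIs in a cell, with *Dnmt3a* found in only 15.2% of the kept wild-type cells. Such sparse counts limit how high r can be, so low values cannot be read as a lack of shared expression. The genes most like each member were chosen and ordered in the wild-type library, and each r is given for wild-type and then for knockout cells. *Tet1* was most like *Npm1*, which encodes the nucleolar protein nucleophosmin (r of 0.43 and 0.42), *Ptma* (0.40 and 0.44), *Set* (0.40 and 0.38), *G3bp1* (0.38 and 0.36) and *Hmgb1* (0.36 and 0.38). *Tet2* was most like *Npm1* (0.29 and 0.33), *Hnrnpf* (0.28 and 0.38), *Srsf2*, *Ywhaz* and *G3bp1*. The order differed in the knockout library, where *Npm1* ranked 7 for *Tet1* and 14 for *Tet2* and *Hnrnpf* ranked 1 for *Tet2*. *Uhrf1* was most like *Ptma* (0.32 and 0.40), *H2afz*, a histone variant gene (0.30 and 0.34), *Set*, *Hnrnpf* and *G3bp1*. For *Dnmt1*, *Dnmt3b*, *Dnmt3l* and *Tdg* no gene reached 0.19 in the wild-type library. *Dnmt1* was followed by *Hmgb2*, *Ptma*, *H2afz*, *Ncl* and *Parp1*, *Dnmt3b* by *H2afz*, *Hmgb2*, *Cnbp*, *Pcna* and *Mtf2*, *Dnmt3l* by *Serbp1*, *Mkrn1*, *Stmn2*, *Gm43558* and *Olfr1388*, and *Tdg* by *Hmgb1*, *Ywhaz*, *Ptges3*, *Npm1* and *Srsf2*. In knockout cells the genes named for *Tdg* reached r of 0.21 to 0.26, *H2afz* reached 0.22 with *Dnmt1*, *Ncl* ranked 155 for *Dnmt1* (0.12), and *Gm43558* gave -0.002 with *Dnmt3l*.

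Partner genes of the pathway were read between the libraries for those with at least 50 UMIs, of which 10.5% of all 15453 were higher and 9.48% lower by 1.5-fold in the knockout library, with a median log2 ratio of 0.05. Of 7 maintenance partners 2 were lower and 0 higher, the chromatin remodeller gene *Hells* at 309 and 153 CPM (ratio 0.497, 0.467 to 0.529) and the sliding clamp gene *Pcna* at 545 and 349 CPM (0.640, 0.614 to 0.668), both of which are also among the S genes. The replication ligase gene *Lig1* gave 0.820 (0.773 to 0.870), and the list's median log2 ratio was -0.21. Of 8 genes listed under methyl-CpG readers 1 was lower, *Zbtb38* at 0.581 (0.494 to 0.681), while *Mbd1* gave 0.677 and *Zbtb33* 0.700, with a list median of -0.34. Only *Mbd3*, the gene of this list with the most UMIs (844 and 889), was counted higher in the knockout library, at 1.31 (1.19 to 1.44). Of 6 TET family members and partners none passed the fold either way, and *Sinhcaf*, a subunit of a SIN3 complex, was the nearest at 0.695 (0.660 to 0.732), followed by *Ogt*, which encodes a TET-binding glycosyltransferase, at 0.820.

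Of 13 genes of base excision repair and demethylation, 1 was higher and 2 lower. *Xrcc1*, which encodes a repair scaffold, stood at 22.5 and 40.3 CPM (1.79, 1.52 to 2.10), whereas the stress-inducible *Gadd45g* stood at 6.27 and 1.82 CPM (0.290, 0.160 to 0.497) and *Gadd45b* at 26.4 and 17.0 CPM (0.645, 0.529 to 0.784). Their relative *Gadd45a*, with more UMIs than either, went the other way at 112 and 129 CPM (1.15, 1.06 to 1.24). Of 8 genes of S-adenosylmethionine supply none passed, with *Mat2b* at 0.693 (0.615 to 0.781) and *Ahcyl2* at 1.12 (0.957 to 1.31). Of the 14 germline genes that promoter methylation is known to silence, 8 were tested, of which 1 was higher and 3 lower. The testis tubulin gene *Tuba3a*, which has a near-identical copy, stood at 14.6 and 53.2 CPM (3.64, 3.05 to 4.36). *Ddx4*, the germ cell helicase gene, stood at 4.12 and 1.39 CPM (0.337, 0.168 to 0.633), *Stk31* at 3.61 and 1.39 CPM (0.386, 0.190 to 0.732) and *Sycp3*, of the synaptonemal complex, at 11.1 and 5.14 CPM. The log2 ratios of the 8 germline genes tested ran from -1.53 to 1.86 with a median of 0.01, which was 0.45 among the 3 with at least 200 UMIs. Those 3 were *Tuba3a*, *Rpl10l* (315 and 308 CPM) and *Dazl*, so that the value of 0.45 is that of *Dazl* alone (1.36, 1.08 to 1.73). The level of *Rpl10l* was far above that of the other genes of its list. Whether it holds reads of its relative *Rpl10* was not tested.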

How the data were processed

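UMI counts per gene and cell barcode were used as deposited. The authors made these count tables from inDrop reads with a published pipeline and did not normalize them. The submitters' processing notes name Seurat 2.3.4 and mm10, while the aligner, the annotation and the use of strand are not given in the sources used here. Of 54146 gene identifiers 54079 matched a symbol in GENCODE M21 (GRCm38), and 0 columns were without a sample. UMIs the tables hold as ambiguous (63462 wild-type, 58924 knockout) were not used. Over all barcodes the tables held 12079546 and 10027710 UMIs.

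The limits for cells follow the study's methods. The members, gene lists and comparisons were chosen with earlier results of these data known, and no list is independent evidence. RP share was taken over 87 ribosomal protein genes. Ratios have exact 95% intervals for a ratio of counts, and shares of cells were recomputed for a depth of 500 UMIs (hypergeometric). For counts of genes past 1.5-fold and for medians and ranges of log2 ratios 0.5 was added to each count. Where 0 UMIs were found, 3 counts were taken as the limit. Named genes are all members, the 3 genes of each list with the largest absolute log2 ratio, for each member with at least 500 wild-type UMIs the 5 genes most like it across cells among those with at least 1000 UMIs there, and *Lin28a*. An item that this rule names is not reported here. *Sycp3* was named as well, after its values were seen, to complete the count of its list, and *Dnmt3aos*, *Dnmt3bos*, *Dnmt3c* and *Tdg-ps* as neighbours or copies of members. *Mbd3*, *Gadd45a*, *Rpl10l* and *Dazl* were also named after their values were seen, to show the limits of what is said of their lists. Contrasts of the members by RP share, and the groups remade within RP ranges or wild-type limits, were added after the data were seen. The calculations were tested on simulated data with known changes. Tools were scanpy 1.11.5 (for Scrublet), scipy 1.17.1, biopython 1.88, matplotlib 3.10.9, pandas 2.3.3 and numpy 2.4.6 under Python 3.11.15.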

Additional observations from a re-analysis of the deposited data

How the results depend on the processing

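With 1 library per genotype the intervals cover counting error only, and how far cultures of the same genotype differ could not be measured. No paired analysis was possible because each group had 1 library. No call past 1.5-fold turned to the opposite direction under the alternatives run, but the ratios of *Dnmt3a* and *Uhrf1* between the libraries, which were not past it, each crossed 1 under 1 of them. The depth ranges and S limits given above are not among these alternatives. In some of those ranges *Dnmt1*, *Dnmt3a*, *Dnmt3l*, *Uhrf1* and *Tdg* crossed 1. Of the planned and added values compared with their main setting, 30 that answer a comparison were marked as moved and 159 were not. Some of the latter still differed from their main setting, as given below. The number of members lower past 1.5-fold rose from 0 to 2 without cells under 5% RP and with median of ratios scaling, and to 1 without fibroblast-like cells and with the mean over cells of each cell's CPM. With that mean the ratio was 0.790 for *Dnmt1*, 1.05 for *Dnmt3a*, 0.617 for *Dnmt3b* and 0.851 for *Uhrf1*. In cells of 5 to 10% RP it was 1.15 for *Uhrf1*, 0.733 for *Tet1* and 0.769 for *Tet2*, and in cells of 10 to 15% RP 0.716 for *Tet1*. Median of ratios scaling shifted log2 ratios by 0.05 and raised the share of lower among all called genes from 56.6% to 67.9%. The counts of genes past the fold, 638 higher and 831 lower, became 113 and 175 at a fold of 2, 1616 and 1465 among genes with at least 50 UMIs, and 9253 and 7310 among genes with at least 1 UMI. With median of ratios scaling they became 484 and 1026. By S transcripts the wild-type count of 3 members became 1 with 2 groups in place of 3. With a denominator without mitochondrial and RP genes it was 1 as well. It became 5 with 4 groups or cells of at least 5000 UMIs, 2 without fibroblast-like cells and 4 with cells of at least 500 UMIs. The knockout count of 5 became 1 with 2 groups and 6 with cells of at least 5000 UMIs. By G2/M transcripts the wild-type count of 2 became 0 with 2 groups and without fibroblast-like cells, and 3 with 4 groups. The knockout count of 1 became 0 with 2 groups, 3 with 4 groups, and 2 with cells of at least 500 or of at least 5000 UMIs and without cells under 5% RP. Shares of cells with a UMI rose with the depth taken, to 54.6% and 39.4% for *Tet1* at 2000 UMIs. For members with few UMIs in fibroblast-like cells, counting error limits what can be said.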

Other observations

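Barcodes under 500 UMIs entered only the comparison of the libraries that was rerun without a minimum of UMIs. They came to 2472 wild-type and 4423 knockout barcodes and held 439056 and 673183 UMIs. *Uhrf1* had 109 and 182 UMIs in them, 248 and 270 CPM, which was 1.25 (1.02 to 1.51) and 1.40 (1.19 to 1.63) times its level in the kept cells. *Dnmt1* was lower in them, at 91.1 and 95.1 CPM, or 0.558 (0.398 to 0.763) and 0.642 (0.492 to 0.825) times its level in kept cells. *Tet1* stood at 346 and 319 CPM, *Tet2* at 105 and 99.5 CPM, so that the order of the libraries for both genes was the same as in kept cells but the gap was smaller. The intervals of *Tet1* (293 to 406 and 278 to 365 CPM) overlapped.

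Across cells of at least 5000 UMIs, the correlation of *Tet1* with the RP share of a cell was -0.33 for wild-type and -0.45 for knockout cells, and that of *Tet2* was -0.28 and -0.39. *Dnmt3l* gave 0.03 and -0.04. *Uhrf1* was correlated with depth at -0.02 for wild-type and 0.22 for knockout cells. These are descriptions over 1234 and 821 cells that share a library and, through the RP share, a denominator.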
